A study of Mus musculus with 6 samples.

Results

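The 38 genes described here encode enzymes that activate fatty acids to acyl-CoA, carry them into mitochondria, oxidise them in mitochondria or peroxisomes, pass their electrons on, or cut acyl-CoA back to free acid. The rule that chose them is a list of gene names and uses no measured value, but the list was drawn up with earlier results of these data known. All 38 of them were found among the 17975 genes measured by RNA-seq in mouse liver. They were grouped as 5 acyl-CoA synthetases, 3 carnitine acyltransferases, 9 enzymes of the mitochondrial beta-oxidation spiral, 6 auxiliary enzymes and other acyl-CoA dehydrogenases, 3 members of the electron transfer flavoprotein system, 6 peroxisomal oxidation enzymes and 6 acyl-CoA thioesterases.

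Livers of 3 Hom mice were compared with livers of 3 WT mice, 1 liver per mouse and with no treatment. Hom mice carried both floxed alleles of the kinase gene Nek7 (NEK7 fl/fl) together with Alb-Cre, a Cre recombinase driven by the albumin promoter, which removes the floxed part of Nek7 in hepatocytes. Both parent lines were on a C57BL/6 background. The labels call the control mice WT, and the sources used here do not say which of these alleles, if any, each sequenced WT mouse carried or where it came from. The study gives an age range for its mice in general and describes older Hom mice elsewhere, but no age for the sequenced mice, and it states that controls were matched for sex and age. RNA came from whole liver tissue, so that cells other than hepatocytes, which the deletion was not aimed at, contributed to every value. The question put to these genes was whether their RNA differed between Hom and WT livers.

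Fatty acids enter beta-oxidation only after they are bound to coenzyme A. Long-chain acyl groups then cross into mitochondria as carnitine esters, and each turn of the spiral shortens the chain and yields reduced electron carriers, part of which reach the respiratory chain through the electron transfer flavoprotein. Peroxisomes shorten very long and branched chains and bile acid precursors, and the liver uses both routes to make energy and ketone bodies during fasting, largely under the control of the nuclear receptor PPARα.

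The libraries held between 19349418 and 19730236 estimated reads each, and levels are given below as CPM, the reads of a gene relative to library size, after the libraries were scaled with TMM factors, which centre the bulk of the genes on no change. Nek7 itself stood at 62.9, 69.0 and 63.6 CPM in the WT livers and at 14.5, 18.1 and 16.7 CPM in the Hom livers, a log2 fold change of -1.99 ± 0.10 (SE, adjusted p = 0.000159). The TMM factors ran from 0.81 to 0.92 in the WT livers and from 1.09 to 1.23 in the Hom livers, so the scaling matters for every value and other scalings are given below. Hom liver 1 had 0 counts of Ddx3y and of Kdm5d, which are on the Y chromosome, and 149 of Uty, while the other 5 livers had at least 630, 243 and 464 counts of these genes. By Ddx3y and Kdm5d the sequenced groups did not look matched for sex, although the sex of each sequenced mouse is not in the sources used here. Knock-out mice of both sexes were used in the study, and results that rest on the whole set are therefore also given without Hom liver 1.

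In Hom livers 35 of the 38 genes were lower and 0 were higher, taking an adjusted p below 0.05 in the quasi-likelihood test of edgeR over 13805 genes. Of all tested genes 20.1% were lower and 21.5% higher. No gene of the set was higher at an unadjusted p under 0.05 either (0 of 38), and DESeq2 called 35 lower and 0 higher. All 38 log2 fold changes were below 0, with a median of -0.89 and a range from -3.58 to -0.083, beside a median of -0.0018 over all tested genes. When only the total number of reads was used for scaling, the median of all genes moved to 0.45, the median of the set to -0.42, and 21 of its genes were lower. Scaled to hepatocyte marker genes, 4 of the set were lower when the markers were summed and 11 when their median was used, and 0 were higher, as described with the cell markers below. Without Hom liver 1, 33 of the 38 genes were lower and the median was -0.84.

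In 35 of the genes every Hom liver was under every WT liver, which held for 27% of all tested genes. The Hom mean ranged from 8.32% of the WT mean for Acot1 to 94.9% for Acot3. A log2 fold change of -1 or less together with the adjusted p was reached by 14 of the 38 genes, namely Acsl1, Acsm1, Cpt2, Crot, Acadvl, Hadha, Acaa2, Eci1, Eci2, Ech1, Etfb, Etfdh, Acaa1b and Acot1, and by 4.17% of all tested genes. The 3 genes that did not pass the test were Acox2, Acot3 and Acot4. Most of the set was abundant, 31 of the 38 genes having a WT mean of at least 100 CPM.

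The livers of a group did not take the same place in every gene. Among WT livers, replicate 1 was the lowest in 31 of the 38 genes, and its median over the set was -0.17 on the log2 scale relative to the WT mean, against 0.071 and 0.082 in the other two. Among Hom livers, replicate 1 was the lowest in 23 of the 38 genes. The medians of the 3 Hom livers were -0.94, -0.86 and -0.83, so that on this scale all of them lay well under the lowest WT liver.

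**Figure D1:**
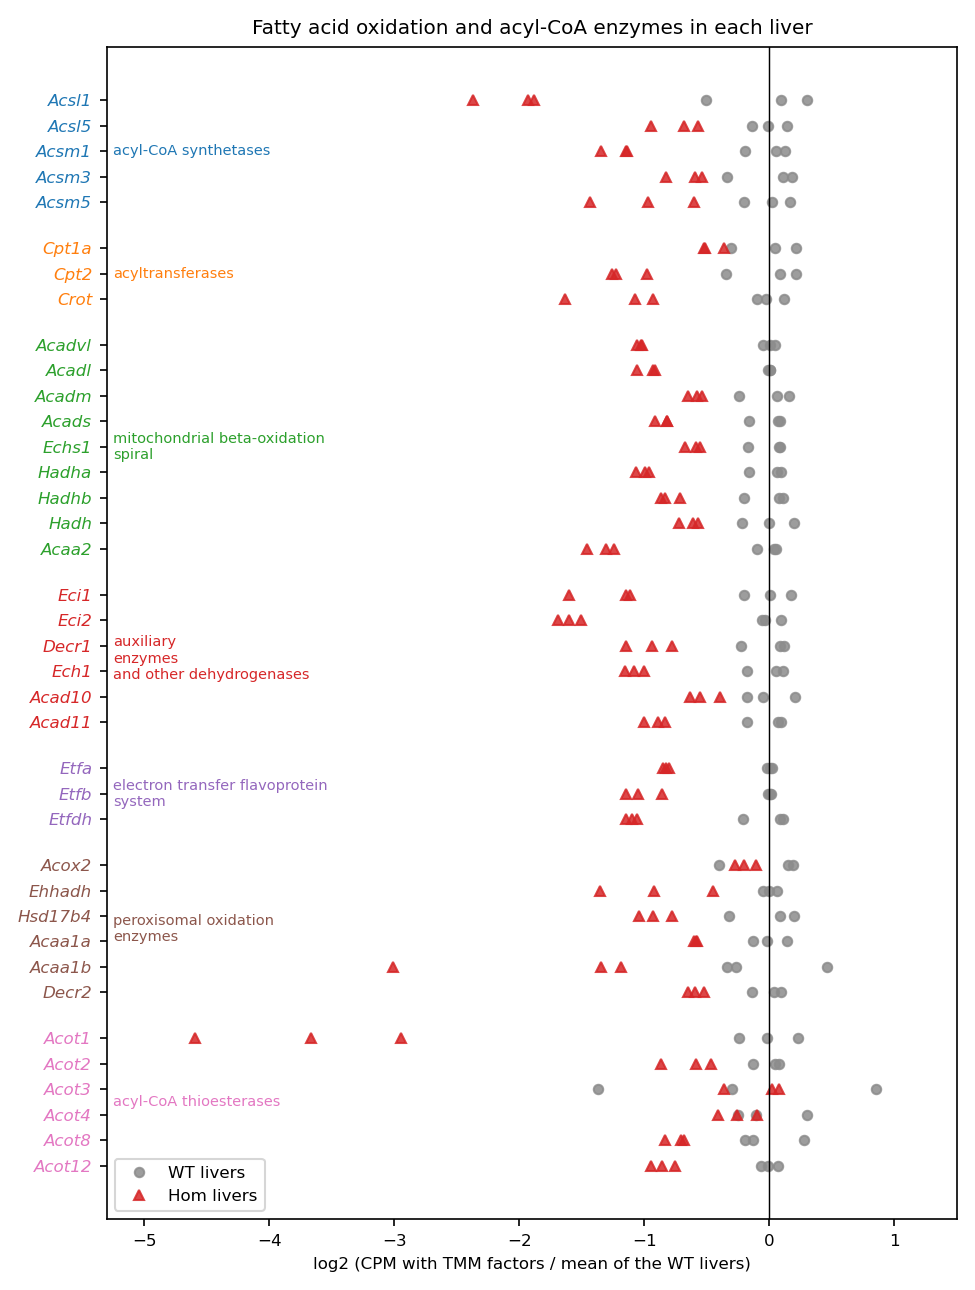
Each point is 1 liver (grey circles WT, red triangles Hom, 3 of each) and the x axis gives the log2 of its CPM with TMM factors over the mean of the WT livers, with the 38 genes in rows by role. In 35 rows all Hom points lie left of all WT points, and in Acox2, Acot3 and Acot4 the groups overlap; scaled by library size alone, Cpt1a, Acox2, Acot3 and Acot4 have a fold change above 0.

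All 5 acyl-CoA synthetases were lower, with a median log2 fold change of -0.96. Acsl1, which activates long-chain fatty acids and was the most abundant of the 38 genes on the CPM scale in WT livers, had 795, 1201 and 1390 CPM in WT livers and 218.7, 305.1 and 295.4 CPM in Hom livers. The groups were far apart, the highest Hom liver being below the lowest WT liver, which was WT liver 1. The means were 1129 ± 304 and 273 ± 47.4 CPM (SD, n = 3), a log2 fold change of -2.05 ± 0.24 (SE, adjusted p = 0.00133). The second long-chain synthetase of the set, Acsl5, had 367, 445 and 400.0 CPM in WT livers and 209, 272 and 252 CPM in Hom livers, a smaller log2 fold change of -0.72 ± 0.14 (adjusted p = 0.00646). Measured within each liver on the deposited TPM scale, which divides by gene length, the ratio of Acsl1 to Acsl5 was 1.49, 1.85 and 2.38 in WT livers and 0.722, 0.772 and 0.807 in Hom livers. Acsl1 thus exceeded Acsl5 in every WT liver and lay under it in every Hom liver, a ratio that no scaling of the libraries can change and that was picked after the values were seen.

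The medium-chain synthetases, which act in mitochondria, had smaller fold changes than Acsl1, a difference that was not tested. Acsm1 had a log2 fold change of -1.21 ± 0.12 (adjusted p = 0.000799) and Acsm5 of -0.96 ± 0.21 (adjusted p = 0.0109), from WT means of 407 and 124 CPM. Acsm3 was lower at -0.65 ± 0.15 (adjusted p = 0.0145), with 63.7, 91.3 and 86.6 CPM in WT livers and 45.4, 53.4 and 55.4 CPM in Hom livers. Its Hom livers lay under its WT livers, but the adjusted p was 0.0501 when WT liver 2 was left out.

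All 3 carnitine acyltransferases were lower. Crot, which makes carnitine esters of chains shortened in peroxisomes, had 659, 691 and 766 CPM in WT livers and 227, 335 and 371 CPM in Hom livers, with a log2 fold change of -1.18 ± 0.19 (adjusted p = 0.00408). The Hom livers spread more than the WT livers, with liver 1 the lowest, and none reached the WT range. Cpt2, which turns acylcarnitine back into acyl-CoA at the inner mitochondrial membrane, had means of 181 ± 34.8 and 81.6 ± 8.90 CPM and a log2 fold change of -1.15 ± 0.16 (adjusted p = 0.00224).

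Cpt1a, the outer-membrane enzyme that commits long-chain acyl groups to mitochondrial entry, was the least changed of the 3 and its call was the weakest of the 35. It had 268, 385 and 342 CPM in WT livers and 232, 257 and 231 CPM in Hom livers. The highest Hom liver was 257 CPM and the lowest WT liver 268 CPM, so the groups only just failed to overlap. The log2 fold change was -0.47 ± 0.15 (adjusted p = 0.0410), and in 5 of the 6 fits that left out 1 liver, all except that without WT liver 1, its adjusted p lay between 0.0747 and 0.126. With library size alone its log2 fold change was 0.0035, and scaled to hepatocyte markers it was 0.16 for their sum and 0.14 for their median. The TPM ratio of Cpt2 to Cpt1a was 0.968, 0.910 and 1.12 in WT livers and 0.723, 0.537 and 0.613 in Hom livers, so that Cpt2 was low relative to Cpt1a in all 3 Hom livers.

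All 9 enzymes of the mitochondrial spiral were lower, with log2 fold changes between -1.33 and -0.59 and a median of -0.85. With library size alone as the scale 6 of the 9 were lower, and Acadm, Echs1 and Hadh did not pass. Scaled to summed hepatocyte markers only Acaa2 passed, and with the median marker Acadvl and Acaa2 did. The largest difference was in Acaa2, the thiolase that releases acetyl-CoA at the end of each turn, with 608, 669 and 676 CPM in WT livers and 237, 263 and 276 CPM in Hom livers. Both groups were tight and far apart, at means of 651 ± 37.5 and 258 ± 19.7 CPM (SD, n = 3), a log2 fold change of -1.33 ± 0.11 (adjusted p = 0.000494).

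Of the acyl-CoA dehydrogenases, which open each turn and differ in the chain length they accept, the very-long-chain enzyme Acadvl had a log2 fold change of -1.04 ± 0.087, the long-chain enzyme Acadl of -0.97 ± 0.079, the short-chain enzyme Acads of -0.85 ± 0.093 and the medium-chain enzyme Acadm of -0.59 ± 0.12. Their adjusted p values ran from 0.000456 for Acadl to 0.00993 for Acadm. Acadl varied least among WT livers, at 169, 170.2 and 171 CPM, and stood at 81.7, 89.1 and 90.2 CPM in Hom livers. The differences between these 4 genes were not tested against each other.

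Of the middle steps of the spiral, the hydratase Echs1 had a log2 fold change of -0.61 ± 0.10 (adjusted p = 0.00411) and the dehydrogenase Hadh, which acts on short and medium chains, of -0.64 ± 0.13 (adjusted p = 0.00801). Hadha and Hadhb encode the α and β subunits of the mitochondrial trifunctional protein, which carries out the last 3 steps on long chains. Hadha went from 405 ± 38.5 to 201 ± 7.54 CPM (log2 fold change -1.01 ± 0.11, adjusted p = 0.000954) and Hadhb from 187 ± 21.5 to 107 ± 5.98 CPM (-0.81 ± 0.11, adjusted p = 0.00206). The TPM ratio of Hadha to Hadhb was 1.68, 1.66 and 1.58 in WT livers and 1.28, 1.49 and 1.49 in Hom livers, groups that did not overlap.

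The 2 subunit genes lie head to head, their starts 272 bases apart on chromosome 5, and the bases before them are shown because 1 stretch of DNA serves as the upstream region of both. The windows of 250 bases before each start shared 228 bases. The sequence is from RefSeq on GRCm38.p6, chr5:30155003-30155252, read 5′ to 3′ towards Hadhb on the plus strand, and the capitals mark the 2 stretches of 13 bases closest to the direct repeat AGGTCANAGGTCA that PPARα binds with its partner RXR, 1 on each strand and both at 4 mismatches.
Hadhb: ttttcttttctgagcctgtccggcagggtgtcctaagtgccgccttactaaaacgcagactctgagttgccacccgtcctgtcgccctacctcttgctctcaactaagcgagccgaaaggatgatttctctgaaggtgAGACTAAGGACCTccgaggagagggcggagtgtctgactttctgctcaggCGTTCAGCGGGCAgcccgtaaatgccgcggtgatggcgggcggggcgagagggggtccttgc

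All 6 auxiliary enzymes and other acyl-CoA dehydrogenases were lower, with a median of -1.01. Eci2, an isomerase that moves the double bond of unsaturated chains so that they can enter the spiral, had 222, 202 and 200 CPM in WT livers and 68.2, 64.3 and 73.3 CPM in Hom livers. Its groups were compact and widely separated, and its adjusted p was the smallest of the set, with a log2 fold change of -1.60 ± 0.092 (adjusted p = 0.000183). The related isomerase Eci1 was lower at -1.27 ± 0.16 (adjusted p = 0.00149), from 110 ± 14.0 to 45.5 ± 8.08 CPM.

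Ech1, which shifts conjugated double bonds in the same breakdown of unsaturated chains, had 216, 253 and 263 CPM in WT livers and 109, 115 and 121 CPM in Hom livers, with a log2 fold change of -1.08 ± 0.11 (adjusted p = 0.000732). Decr1, the mitochondrial dienoyl-CoA reductase, was lower at -0.94 ± 0.13 (adjusted p = 0.00241). These 4 enzymes for unsaturated chains were therefore lower in Hom livers, each with every Hom liver under every WT liver. All 4 also passed with library size alone as the scale. Scaled to summed hepatocyte markers, Eci2 passed (adjusted p = 0.00269) and Eci1, Ech1 and Decr1 did not (adjusted p = 0.0626, 0.130 and 0.307), and with the median marker Decr1 did not (adjusted p = 0.164).

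Acad11, an acyl-CoA dehydrogenase of longer chains, was lower at -0.91 ± 0.11 (adjusted p = 0.00150). Its relative Acad10 was lower at -0.52 ± 0.12 (adjusted p = 0.0146), with 28.0, 36.7 and 30.6 CPM in WT livers and 20.5, 24.2 and 21.7 CPM in Hom livers. The groups did not overlap, but without Hom liver 3 the adjusted p of Acad10 was 0.0589.

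The electron transfer flavoprotein takes electrons from the acyl-CoA dehydrogenases and hands them to ubiquinone through its dehydrogenase. All 3 of its genes were lower, with TMM factors and with library size alone. They did not pass with summed hepatocyte markers, and with the median marker Etfb and Etfdh passed and Etfa did not. Etfdh, the membrane enzyme, had 199.9, 250.4 and 246 CPM in WT livers and 105, 108 and 111 CPM in Hom livers, with a log2 fold change of -1.10 ± 0.11 (adjusted p = 0.000759). The β subunit gene Etfb had 222, 220.2 and 224 CPM in WT livers and 122, 100.4 and 107 CPM in Hom livers (-1.01 ± 0.099, adjusted p = 0.000701). The α subunit gene Etfa was lower at -0.83 ± 0.078 (adjusted p = 0.000637), from 243 ± 3.42 to 137 ± 2.23 CPM (SD, n = 3). The subunit genes varied little among WT livers, and the TPM ratio of Etfa to Etfb was 0.651, 0.675 and 0.658 in WT livers against 0.677, 0.810 and 0.783 in Hom livers, the lowest Hom liver lying just above the highest WT liver.

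Of the 6 peroxisomal oxidation enzymes 5 were lower, and the calls of 2 of them, Acaa1b and Ehhadh, were lost without some livers. Acaa1b, a peroxisomal thiolase, had 759.9, 721 and 1259 CPM in WT livers and 113, 402 and 358 CPM in Hom livers. The groups did not overlap, with Hom liver 1 far below the other two and WT liver 3 far above the others. The log2 fold change was -1.65 ± 0.47 (adjusted p = 0.0297), -1.27 (adjusted p = 0.0170) without Hom liver 1, -1.35 (adjusted p = 0.0812) without WT liver 3, -1.80 (adjusted p = 0.0563) without WT liver 2 and -1.82 (adjusted p = 0.0661) without Hom liver 3. Its near-identical neighbour Acaa1a was lower by less, at -0.59 ± 0.089 (adjusted p = 0.00296), and the TPM ratio of Acaa1b to Acaa1a was 6.999, 6.14 and 9.61 in WT livers and 1.44, 5.10 and 4.56 in Hom livers. Reads that fit both genes were divided between them by estimation, so the split is uncertain.

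Ehhadh, the bifunctional enzyme of the classical peroxisomal route, had 377, 364 and 393 CPM in WT livers and 148, 277 and 199 CPM in Hom livers. The WT livers were nearly alike and the Hom livers spread from 148 to 277 CPM, all below them. Its log2 fold change was -0.86 ± 0.22 (adjusted p = 0.0191), and the adjusted p was 0.0513 without WT liver 2, 0.0509 without WT liver 3 and 0.0706 without Hom liver 3. Hsd17b4, the bifunctional enzyme for branched chains and bile acid precursors, was lower at -0.91 ± 0.16 (adjusted p = 0.00496), and Decr2, the peroxisomal dienoyl-CoA reductase, at -0.59 ± 0.094 (adjusted p = 0.00365).

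Acox2, the oxidase that begins the shortening of branched chains and bile acid precursors, did not pass the test. It had 186, 280.5 and 272 CPM in WT livers and 229, 214 and 203 CPM in Hom livers. WT liver 1 was the lowest of the 6 and the Hom livers lay between it and the other WT livers, with a log2 fold change of -0.19 ± 0.17 (adjusted p = 0.377). Without WT liver 1 the adjusted p was 0.0319 at a log2 fold change of -0.37. On the deposited TPM scale Acox2 was the only member with every Hom liver above every WT liver, at 123, 152 and 149 TPM in WT livers and 189, 203 and 185 TPM in Hom livers, and its log2 fold change was 0.27 with library size alone, 0.41 with summed hepatocyte markers and 0.40 with their median. The direction for Acox2 therefore depended on the scale.

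The acyl-CoA thioesterases, which release free fatty acid and coenzyme A, differed most among themselves. Acot1, the cytosolic enzyme for long chains, had 43.5, 31.4 and 36.7 CPM in WT livers and 1.54, 2.93 and 4.83 CPM in Hom livers. The lowest WT liver was several times higher than the highest Hom liver. These values rested on estimated counts of 779, 490 and 598 in WT livers and 33.5, 71.2 and 112 in Hom livers. The Hom mean was 8.32% of the WT mean, and the log2 fold change of -3.58 ± 0.36 (adjusted p = 0.000791) was the lowest of the 38 genes, between -4.04 and -3.26 when 1 liver was left out.

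The mitochondrial enzyme Acot2 is encoded beside Acot1 and closely resembles it, yet its values were much nearer between the groups. It had 5.58, 6.47 and 6.33 CPM in WT livers and 3.36, 4.08 and 4.44 CPM in Hom livers, with a log2 fold change of -0.63 ± 0.17 (adjusted p = 0.0255), and without each liver other than WT liver 1 its adjusted p lay between 0.0510 and 0.0780. The TPM ratio of Acot1 to Acot2 was 11.1, 6.90 and 8.30 in WT livers and 0.659, 1.02 and 1.55 in Hom livers. In WT livers Acot1 was thus well above Acot2 per length, and in Hom livers they were at like levels.

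Acot3 and Acot4, peroxisomal enzymes from the same cluster on chromosome 12, did not pass the test. Acot3 had 7.48, 1.602 and 3.38 CPM in WT livers and 4.38, 4.20 and 3.23 CPM in Hom livers (log2 fold change -0.083 ± 0.50, adjusted p = 0.906), and the spread of the WT livers covered all 3 Hom livers. The sign for Acot3 changed with the scaling and with the livers kept, from -0.47 to 0.65 when 1 liver was left out. Acot4 had 21.7, 14.7 and 16.3 CPM in WT livers and 16.5, 13.2 and 14.7 CPM in Hom livers (-0.25 ± 0.17, adjusted p = 0.260). Reads shared among Acot1 to Acot4 were divided by estimation, and in 15 of the 38 genes at least 1 estimate was not a whole number.

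The other 2 thioesterases were lower. Acot12, a cytosolic enzyme that acts on acetyl-CoA, had 126, 139 and 132 CPM in WT livers and 68.8, 78.5 and 73.1 CPM in Hom livers, with a log2 fold change of -0.85 ± 0.085 (adjusted p = 0.000758). The peroxisomal enzyme Acot8 was lower at -0.74 ± 0.16 (adjusted p = 0.0102), from 13.01 ± 2.41 to 7.79 ± 0.448 CPM. In neither gene did the groups overlap.

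**Figure D2:**
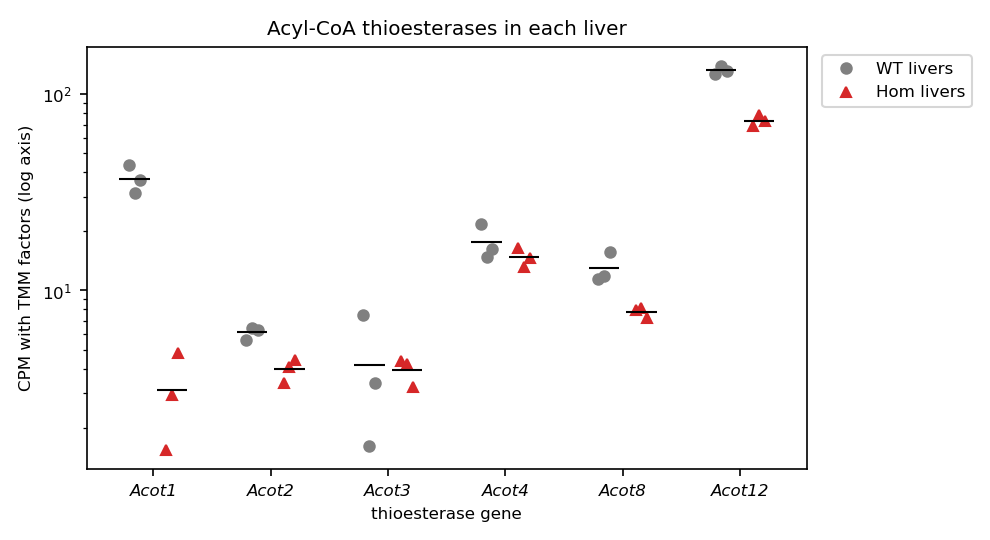
CPM with TMM factors (log axis) of the 6 acyl-CoA thioesterase genes in each liver, with WT livers as grey circles, Hom livers as red triangles and a bar at the mean of each group of 3. Acot1 falls from between 31.4 and 43.5 to between 1.54 and 4.83, while Acot3 and Acot4 overlap between the groups.

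The bases before the starts of Acot1 and Acot2 are shown because these closely related neighbours differed in how far they were from WT. Those before Acot12 are shown because they held the closest match to the PPARα repeat among the windows used for the set. Each is the 250 bases before the RefSeq start on the plus strand of GRCm38.p6, at chr12:84009252-84009501 for Acot1, chr12:83987611-83987860 for Acot2 and chr13:91741271-91741520 for Acot12, with the 13 bases closest to AGGTCANAGGTCA on either strand in capitals, which in Acot1 are 2 equal stretches.
Acot1: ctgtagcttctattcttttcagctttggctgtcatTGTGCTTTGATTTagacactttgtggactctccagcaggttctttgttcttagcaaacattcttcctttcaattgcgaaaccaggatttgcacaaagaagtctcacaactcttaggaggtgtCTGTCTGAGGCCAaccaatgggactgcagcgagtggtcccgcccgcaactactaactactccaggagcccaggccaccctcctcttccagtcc
Acot2: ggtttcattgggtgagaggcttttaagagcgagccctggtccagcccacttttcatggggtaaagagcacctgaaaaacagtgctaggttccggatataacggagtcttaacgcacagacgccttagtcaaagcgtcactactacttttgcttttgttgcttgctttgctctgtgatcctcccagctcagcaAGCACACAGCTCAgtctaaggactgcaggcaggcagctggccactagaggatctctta
Acot12: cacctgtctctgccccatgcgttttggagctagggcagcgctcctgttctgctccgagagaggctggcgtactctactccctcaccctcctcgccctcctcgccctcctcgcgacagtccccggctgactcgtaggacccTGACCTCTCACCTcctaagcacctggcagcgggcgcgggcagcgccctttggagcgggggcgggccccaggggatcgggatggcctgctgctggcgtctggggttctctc

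The capitals hold 4 mismatches to the repeat in each stretch of Acot1, 3 in Acot2 and 1 in Acot12, where the match is on the minus strand. RefSeq windows of 35 of the 38 genes, 38 windows in all, were used, and AGGTCANAGGTCA was searched on both strands. Windows of the set on 1 chromosome were left out before counting, while the windows of all genes kept that chromosome. The shares below therefore do not cover the same chromosomes. A match with at most 2 mismatches was held by 4 of the 38 windows (10.5%), those of Acot12, Acot4, Echs1 and Etfa, and by 3.24% of all 32851 windows, and a match with at most 3 mismatches by 31.6% and 21.3%. Acot4 did not pass the test in Hom livers, and Acot1, with the lowest fold change, was not among the 4. These are matches of letters in short windows and nothing about binding was measured.

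Per gene length, the order of the genes differed between the groups. In WT livers the most abundant were Acaa1b at 828 ± 236 TPM, Acaa2 at 645 ± 34.6 TPM and Acsl1 at 433 ± 79.3 TPM (SD, n = 3), of which the first 2 were not apart beyond the spread of Acaa1b. In Hom livers Acaa1b at 420.0 ± 240 TPM and Acaa2 at 396 ± 54.4 TPM still led, and Acsl1 was 16th at 165 ± 38.9 TPM. Acot3 and Acot2 had the lowest means in both groups. In Hom livers, however, Acot1 at 4.65 ± 2.58 TPM was not apart from Acot2 at 4.12 ± 0.80 TPM beyond the spread.

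The 38 genes together took 0.682% to 0.754% of all TPM in WT livers and 0.446%, 0.6002% and 0.573% in Hom livers 1 to 3, so that the groups did not overlap on this scale either. By role the summed TPM of WT and Hom livers did not overlap for the synthetases (991.8 to 1126 in WT, 526 to 787 in Hom), the carnitine acyltransferases (568 to 607 and 361 to 504), the mitochondrial spiral (2041 to 2190 and 1518 to 1833), the auxiliary enzymes (868 to 929.6 and 544 to 688), the flavoprotein system (729.6 to 847 and 585 to 619.6) and the thioesterases (128 to 166 and 91.6 to 117). Without Acot1 the thioesterases overlapped, at 118.9, 100.0 and 104.7 TPM in WT and 89.5, 112.0 and 101.3 TPM in Hom. The peroxisomal enzymes did overlap, their sums being 1390 to 1909 for WT and 835 to 1487 for Hom.

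TPM carries no correction for library composition, and gene by gene it showed a more mixed picture than CPM with TMM factors. Of the 38 genes, 28 had a lower mean TPM in Hom livers and 10 a higher one. In 20 genes all Hom livers were under all WT livers, in 17 the groups overlapped, and in 1 (Acox2) all Hom livers were above. Hadh, for example, had a mean of 256 TPM in both groups, and Acadm had 199.6 ± 9.87 TPM in WT livers and 206 ± 22.7 TPM in Hom livers. No test was run on TPM.

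**Figure D3:**
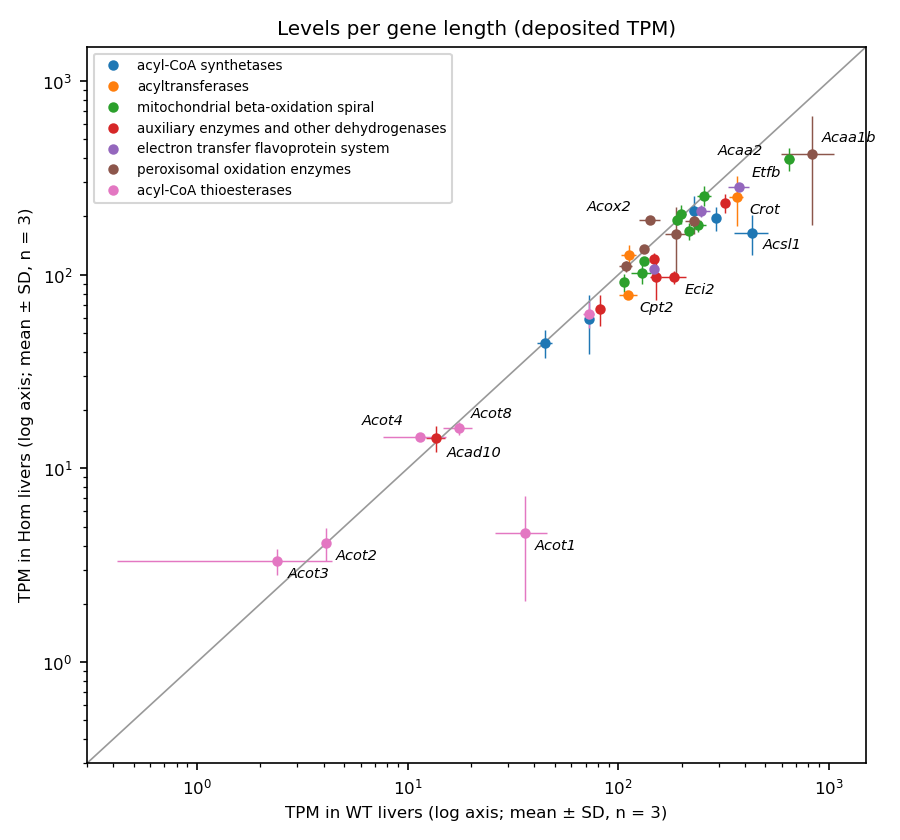
Mean TPM of each of the 38 genes in the 3 Hom livers (y axis, log) against the 3 WT livers (x axis, log), with bars of 1 SD, colours for the roles and a line of equal TPM. Acot1 and Acsl1 lie furthest below the line, and 10 genes, Acox2 among them, lie above it on this scale.

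Because RNA came from whole tissue, fewer hepatocytes and less RNA per hepatocyte cannot be told apart, and markers of other liver cells moved with the genotype. Of 12 cholangiocyte markers 11 were higher in Hom livers and 0 lower, and their summed level was 54.0 to 101 TPM in WT livers and 923 to 1413 TPM in Hom livers. Of 14 stellate cell and fibroblast markers 7 were higher and 2 lower (202 to 310 TPM and 502 to 601 TPM), and of 14 macrophage markers 3 were higher and 2 lower (353 to 994.5 TPM and 1003 to 1578 TPM). Among 12 endothelial markers 1 was higher and 5 lower (101 to 172 TPM and 97.7 to 113 TPM), and among 7 lymphocyte markers tested 2 were higher and 0 lower (5.02 to 12.9 TPM and 14.9 to 29.2 TPM for the whole list). None of the 6 neutrophil markers tested, and not the 1 adipocyte marker tested, passed the test in either direction, nor did any at an unadjusted p under 0.05 (0 in edgeR) or in DESeq2 (0). The summed neutrophil markers were nevertheless uneven within the groups, at 312.5, 10.7 and 24.4 TPM in WT livers 1 to 3 and 64.7, 221 and 63.7 TPM in Hom livers 1 to 3. The highest, WT liver 1, is also the WT liver that was lowest in 31 of the 38 genes, and without it 36 of them were lower at a median of -0.95. The cholangiocyte and lymphocyte markers lower were 0 by these criteria too. No measured marker was at 0 in all 6 livers, and of the 12 lymphocyte genes listed 11 were measured and summed. Their part in the lower levels of the 38 genes was not tested.

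Hepatocyte markers give the nearest measured reference for hepatocyte RNA, but they moved with the genotype too, so scaling to them is no correction for hepatocyte content. The most abundant, Alb, was itself lower, from 114100 ± 15430 to 47660 ± 8076 CPM (log2 fold change -1.26, adjusted p = 0.00991). Trf and Hpx had fold changes above 0 (0.67 and 1.15 on the log2 scale) and did not pass the test. Of 25 such genes 14 were lower in Hom livers and 0 higher in edgeR (15 and 2 at an unadjusted p under 0.05, 16 and 1 in DESeq2). Their median was -0.58 on the log2 scale, beside -0.89 for the fatty acid genes. Their summed level was 166300 to 233900 TPM in WT livers and 170200 to 209500 TPM in Hom livers, and overlapped. When the libraries were scaled so that the sum of these markers was equal, the median of all genes was 0.62, the median of the fatty acid genes was -0.26, and 4 of the 38 passed the test as lower, namely Acsl1, Acaa2, Eci2 and Acot1. With the median of the markers as the scale, an alternative chosen after the data were seen, the median of all genes was 0.59, that of the fatty acid genes -0.28, and 11 were lower, the same 4 and Acsm1, Cpt2, Acadvl, Eci1, Ech1, Etfb and Etfdh. Acsl1, Acaa2, Eci2 and Acot1 were thus lower under every scaling tried, and no gene of the set was higher under any of them.

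**Figure D4:**
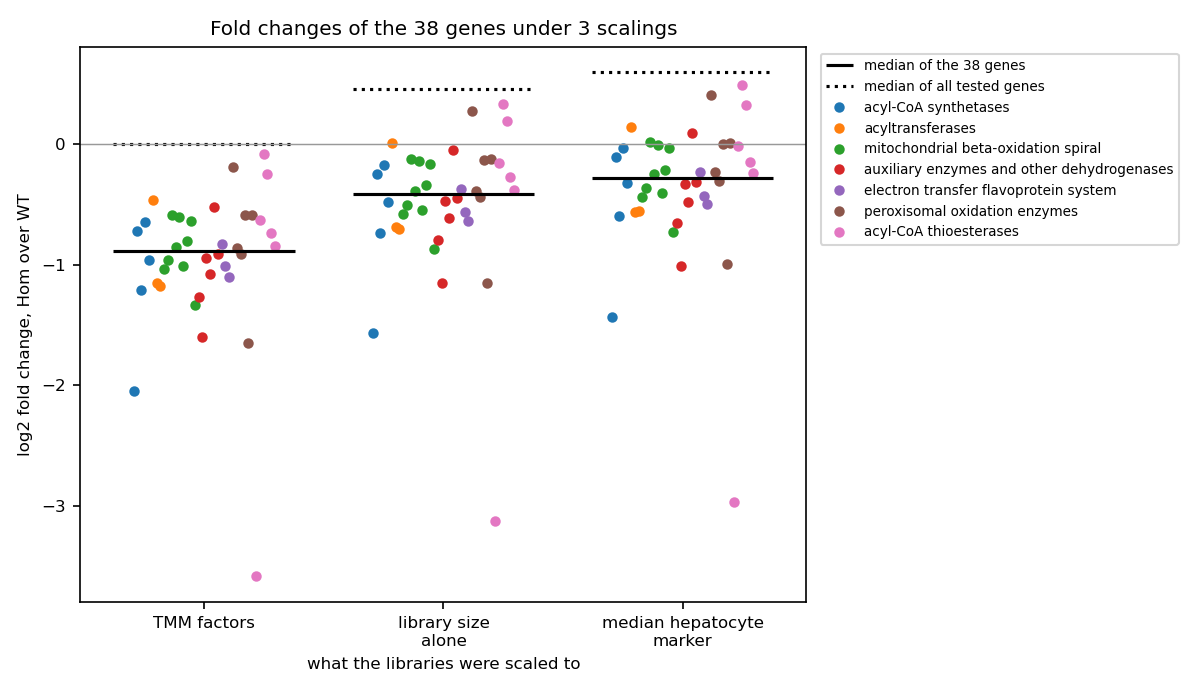
Log2 fold changes (Hom over WT, 3 livers each) of the 38 genes, coloured by role, when libraries were scaled with TMM factors, by library size alone or to the median hepatocyte marker, with solid lines at the median of the 38 genes and dotted lines at the median of all tested genes. The solid line lies at -0.89, -0.42 and -0.28 and the dotted line at -0.0018, 0.45 and 0.59, and some genes, Acox2, Acot3, Acot4 and Cpt1a among them, change sign between the scalings.

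Of other genes around fatty acid oxidation, 69 were tested, of which 40 were lower, 9 higher and 20 did not pass the test. Their median on the log2 scale was -0.47. With library size alone 22 were lower and 19 higher. These genes went both ways, and their difference from the 38 enzymes was not tested. Of all 13805 tested genes 20.1% were lower and 21.5% higher with TMM factors. With library size alone 642 of all tested genes were lower and 6566 higher. By role, 10 of 13 transcriptional regulators were lower and 1 higher, 7 of 11 other peroxisomal genes were lower and 0 higher, 6 of 9 genes of fatty acid uptake and binding were lower and 2 higher, 5 of 8 other genes of the carnitine system were lower and 1 higher, and 4 of 6 other acyl-CoA dehydrogenases were lower and 0 higher. Of 8 other acyl-CoA synthetases 4 were lower and 3 higher, of 7 other thioesterases 2 were lower and 1 higher, and of 7 genes of malonyl-CoA control 2 were lower and 1 higher. Among the other peroxisomal and dehydrogenase genes, 0 were higher at an unadjusted p under 0.05 in edgeR and 0 in DESeq2.

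Among the regulators, Ppara, which encodes PPARα and is the main activator of many of the enzymes above, went from 237 ± 46.4 to 96.0 ± 11.7 CPM (SD, n = 3), a log2 fold change of -1.30 ± 0.16 (adjusted p = 0.00159). Its coactivator gene Ppargc1a was lower at -0.87 ± 0.26 (adjusted p = 0.0346), with overlapping groups, and Ppargc1b at -1.003 ± 0.22 (adjusted p = 0.0125). Lpin1, whose product makes diacylglycerol and also acts with PPARα, was the lowest of these genes at -3.23 ± 0.43 (adjusted p = 0.00188). Ppard was lower at -1.15, while Pparg, the receptor best known from fat cells, was higher at 1.12 ± 0.22 (adjusted p = 0.00755).

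Of the other peroxisomal genes, Hacl1, a lyase of alpha-oxidation, was lower at -1.74 ± 0.13 (adjusted p = 0.000369), its pathway partner Phyh at -1.29, the peroxisomal acyl-CoA transporter Abcd3 at -1.26 and the reductase Pecr at -1.19. Gcdh and Ivd, dehydrogenases of amino acid breakdown, were lower at -1.22 and -1.03.

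Among genes of uptake and binding, Fabp1, the main fatty acid binding protein of hepatocytes, was lower at -2.32 ± 0.30 (adjusted p = 0.00168) and Fabp2 at -1.83 ± 0.32 (adjusted p = 0.00481), and the transporter genes Slc27a2 and Slc27a5 were both lower at -1.08. Cd36, a fatty acid translocase, was higher at 1.32 ± 0.12 (adjusted p = 0.000535), from 53.9 ± 7.91 to 135 ± 7.07 CPM. In the carnitine system Aldh9a1, of carnitine synthesis, was lower at -1.16 and the muscle form Cpt1b at -1.39, and the brain form Cpt1c was higher at 2.05 from a WT mean of 0.413 CPM.

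The other synthetases included Acsl4, which prefers polyunsaturated chains and was higher at 0.82 ± 0.16 (adjusted p = 0.00713), the opposite of Acsl1. The TPM ratio of Acsl1 to Acsl4 was 22.5, 25.0 and 31.0 in WT livers and 2.47, 4.12 and 4.62 in Hom livers. Acsl3 was higher at 0.71, Acss1 at 2.22 from a WT mean of 0.338 CPM, and Acsm2 and Acss3 were lower at -1.84 and -1.04. The thioesterase gene Acot9 was higher at 1.62 ± 0.15 (adjusted p = 0.000597), from 3.70 ± 0.443 to 11.4 ± 0.849 CPM, the opposite of Acot1.

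**Figure D5:**
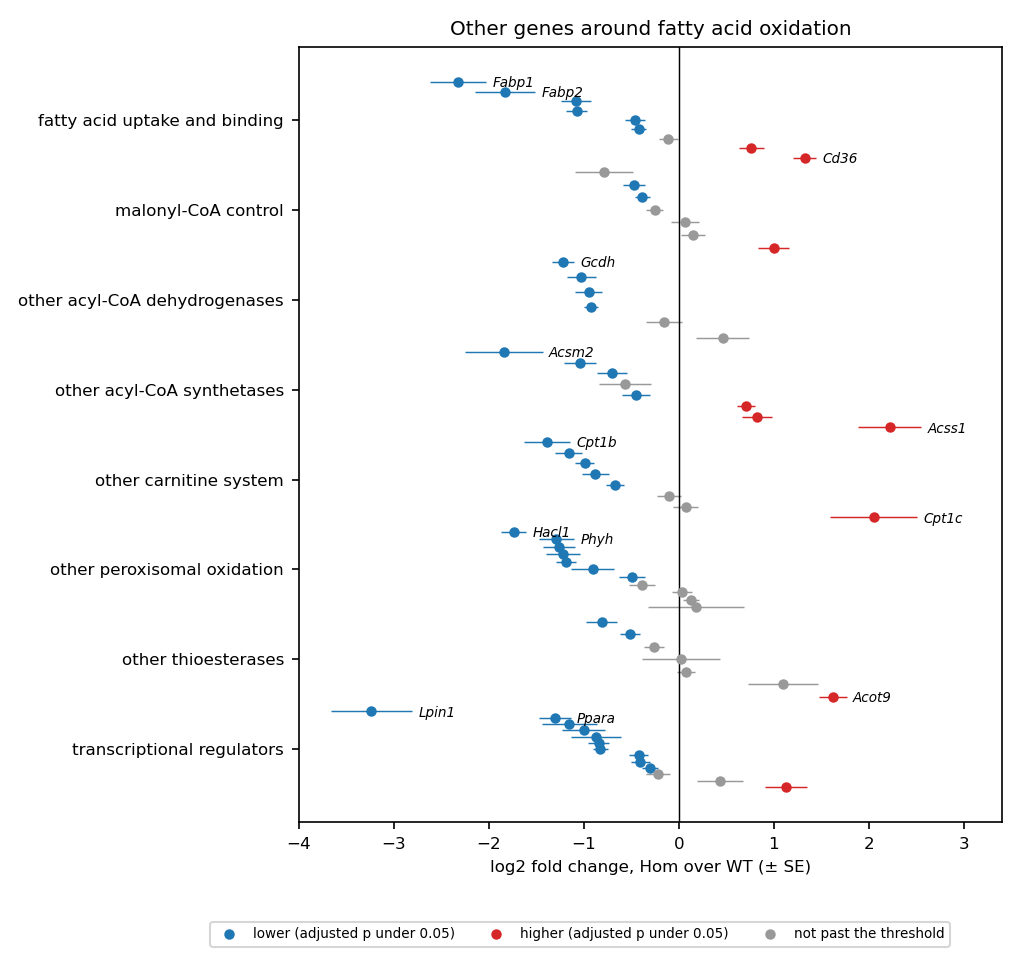
Log2 fold changes (Hom over WT, ± SE, TMM factors, 3 livers each) of the 69 other genes tested, in rows by role, in blue where lower and in red where higher at an adjusted p under 0.05, and in grey otherwise. There are 40 blue points, 9 red points and 20 grey points, and with library size alone 22 would be lower and 19 higher.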

How the data were processed

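The authors prepared total RNA from frozen liver with Trizol, and DNBSEQ sequencing was done by BGI Genomics. The submitters' processing notes name HISAT2 2.0.4, Bowtie2 2.2.5, RSEM 1.2.12 and the mouse build mm9, with no role or order. The authors deposited estimated counts per gene (not scaled between livers), with FPKM (per gene length and library size) and TPM values for each liver. Deposited columns of group means carry crossed names and were not used. Depth was 19349418 to 19730236 estimated counts per liver, so counting error matters mainly for genes of a few CPM.

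Estimated counts were rounded to whole numbers (65.9% were whole as deposited) for edgeR 4.0.16 (R 4.3.3). Genes passing filterByExpr (13805, all 38 enzymes among them) were scaled with TMM factors and tested with the quasi-likelihood test, 3 Hom against 3 WT livers. The threshold was a Benjamini-Hochberg adjusted p under 0.05 over all tested genes. The SE follows from the fold change (log2) divided by the square root of F. The procedure was tested on counts simulated from the WT means with as many genes raised as lowered, which cannot test the choice of scaling. FPKM served only to recover gene length. TPM is described and not tested.

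WT and Hom livers share replicate numbers but are different mice, and same-numbered livers did not deviate together (correlations of -0.11, -0.064 and -0.065), so no pairing was used. No 2 libraries of a group were alike within counting error (smallest chi-square over its degrees of freedom 23.8). Liver 1 stood apart in both groups. Its pairs had values of 142.9 and 162.7 in WT, against 23.8 for WT livers 2 and 3. In Hom its pairs had 85.3 and 79.9, against 26.6 for Hom livers 2 and 3. Each p-value sets the difference between Hom and WT livers against the spread between these mice, estimated with information shared across genes.

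Values per liver were given by rule for Nek7 and for the members with the largest change or the highest WT level in TPM of each role. They were also given for members whose call or sign changed under an alternative other than a scaling or the minimum fold change. Of the other pathway genes, Ppara, Ppargc1a and those past the threshold that changed by 1 or more on the log2 scale were named, and 1 gene that the rule names is not reported here. Other genes named with values (Acsl5, Acadl, Acot4, Acsl3 and Acsl4) and all ratios were chosen after their values were seen. The members and lists were chosen with earlier results of these data known. Promoter windows and names are from RefSeq on GRCm38.p6. Alternatives were DESeq2 1.42.0, other scalings, filters, a minimum fold change, a length correction, a replicate block and leaving out each liver.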

Additional observations from a re-analysis of the deposited data

How the results depend on the processing

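The count of 35 lower genes was 35 with DESeq2, no filter, a loess correction for gene length and the replicate block, and 34 with upper-quartile factors or at least 10 counts in every liver. The replicate block gave 35 lower genes of the set, a median of -0.90, and 2214 lower and 2383 higher genes among all tested, and changed no other call of the set. Leaving out 1 liver gave 30 to 36 lower members, 3 to 6 of them peroxisomal, a median from -0.95 to -0.84, and 1767 to 2750 lower genes among all tested. In all of these fits 29 members were lower, and the 6 that lost the call without some liver were Acaa1b, Acad10, Acot2, Acsm3, Cpt1a and Ehhadh.

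The scaling moved the results most, and its cause was not tested. With library size alone 642 genes were lower and 6566 higher, 21 members were lower (synthetases 2, peroxisomal 1, thioesterases 2) at a median of -0.42, and 22 other pathway genes were lower and 19 higher. With summed hepatocyte markers 329 genes were lower and 6333 higher, 4 members were lower at a median of -0.26 (synthetases, spiral, auxiliary enzymes and thioesterases 1 each, and carnitine acyltransferases, flavoprotein system and peroxisomal enzymes 0 each), and 5 pathway genes were lower and 18 higher. With the median hepatocyte marker, chosen after seeing the data, 400 genes were lower and 7373 higher, 11 members were lower at a median of -0.28 (synthetases 2, carnitine acyltransferases 1, spiral 2, auxiliary enzymes 3, thioesterases 1, peroxisomal enzymes 0), and 14 pathway genes were lower and 20 higher. A minimum absolute log2 fold change of 1 left 575 lower and 1825 higher genes, 14 lower members (synthetases 2, spiral 3, auxiliary enzymes 3, peroxisomal 1, thioesterases 1), and 19 lower and 5 higher pathway genes.

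Log2 fold changes turned positive with library size alone for Cpt1a (0.0035), Acox2 (0.27), Acot3 (0.33) and Acot4 (0.18). With summed hepatocyte markers they did so for Cpt1a (0.16), Acadm (0.032), Echs1 (0.0086), Acad10 (0.12), Acox2 (0.41), Acaa1a (0.024), Decr2 (0.024), Acot2 (0.011), Acot3 (0.55) and Acot4 (0.36). With the median hepatocyte marker they did so for Cpt1a (0.14), Acadm (0.010), Acad10 (0.086), Acox2 (0.40), Decr2 (0.00049), Acot3 (0.48) and Acot4 (0.32). Acot3 was also positive with upper-quartile factors (0.0039) and the replicate block (0.13), and ranged from -0.47 to 0.65 when 1 liver was left out.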
